A study of Sus scrofa with 4 samples.

Results

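Heme is built in a chain of enzymatic steps, of which the first and the last take place in the mitochondrion. 5-Aminolevulinate synthase (ALAS) joins glycine and succinyl-CoA in the first step, and this step limits the rate of the whole pathway. In the liver the enzyme is ALAS1, whose synthesis is held down by heme itself, and most of the heme made there goes into cytochrome P450 enzymes. Heme oxygenases open the heme ring to biliverdin, and biliverdin reductases turn biliverdin into bilirubin, which the hepatocyte conjugates and exports into bile. In mice, hepatic ALAS1 is known to be induced by fasting through the coactivator PGC-1alpha and to be repressed by insulin.

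The genes described here are ALAS1, ALAD, UROS, UROD, CPOX, PPOX and FECH of heme synthesis and HMOX1 and BLVRB of heme breakdown. They were chosen by their gene symbol, after the difference of ALAS1 between the diets had been seen in these arrays, so that the values of all these genes in this comparison are a description and carry no test. Of the 9 genes, 6 have an annotated probe set, and together they have 9 of the 23999 probe sets. ALAS1 has 3, PPOX has 2, and ALAD, UROD, FECH and HMOX1 have 1 each. UROS, CPOX and BLVRB have no probe set under their name in the annotation used here and were not analysed.

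The carnitine group comprised male (German Landrace x Large White) x Pietrain crossbred piglets whose diet held 500 mg of added L-carnitine per kg, and the control group comprised piglets of the same cross and sex on the basal diet, which was low in carnitine. Both were fed for 21 days from the age of 4 weeks, with 8 pigs per diet, and livers were taken at 7 weeks, 2.5 h after a meal. RNA from 4 pigs was combined per pool, and 2 pools per diet were hybridized to 1 Affymetrix porcine GeneChip each. For a single probe set the spread between the 2 pools of a diet is thus the only direct measure of error. The variation among single pigs cannot be seen. Values are MAS5 signals, a linear measure of hybridization that was scaled to be comparable between arrays. Signals are given for pool 1 and then pool 2 of a diet, with "under carnitine" standing for the carnitine group and "in controls" for the control group. A log2 difference is the mean log2 signal of the carnitine pools minus that of the control pools, and its standard error comes from limma. In limma this error also draws on the spread of other probe sets of like signal (7.18 degrees of freedom, 2 of them from the pools). It can therefore be smaller or larger than the pools of the gene itself would give.

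The arrays carried liver RNA, since 12 of 14 hepatocyte markers had a probe set and all 12 lay above the median signal of 111. Their summed signal was 375565 and 347985 under carnitine, against 408124 and 372373 in controls. Probes at the 3' end of GAPDH were brighter than those at its 5' end by 18.7-fold and 16.1-fold under carnitine, against 12.5-fold and 11.6-fold in controls, a ratio that grows with RNA degradation. For actin the same ratio was 157 and 136, against 91.2 and 86.7. Both ratios thus moved with the diet, and their part in the differences below was not tested. In whole tissue, fewer cells of a type and less RNA per cell cannot be told apart.

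The rate-limiting enzyme had the widest difference of the pathway. All 3 probe sets of ALAS1 gave signals that were several times as high in both carnitine pools as in both control pools. The brightest (set 1) had signals of 15992 and 16002 under carnitine, against 4352 and 1915 in controls. The carnitine pools thus lay nearly on top of each other, while the control pools differed by 2.27-fold. The log2 difference of this probe set was 2.47 (standard error 0.36), a 5.54-fold higher signal. Set against each control pool in turn, each carnitine pool gave folds from 3.67 to 8.36, so that even the closest pair of pools from different diets lay further apart than the pools of the same diet.

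The other ALAS1 probe sets, both of the type that detects several transcripts of 1 gene, were dim. Set 2 had signals of 109 and 130.0 under carnitine, against 42.3 and 7.67 in controls, with a log2 difference of 2.72 (standard error 0.83). Set 3 had signals of 88.7 and 88.9 under carnitine, against 23.2 and 10.0 in controls, with a log2 difference of 2.54 (standard error 0.64). Both lay below the median signal of the arrays, and of their control pool signals all but 1 lay below the 25th percentile of the array, which was 24.6 and 27.2 under carnitine and 26.4 and 26.3 in controls. With signals raised to that percentile their log2 differences were 1.84 and 1.75, and with 64 added to every signal 1.07 and 0.93. The brightest probe set kept 2.47 and 2.44 in the same settings.

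In all 3 probe sets control pool 1 lay above control pool 2. The difference of the brightest probe set was therefore 3.06 without control pool 1 and 1.88 without control pool 2, and it stayed at 2.47 without either carnitine pool. Without the same control pools set 2 gave 3.96 and 1.49, and set 3 gave 3.15 and 1.93. The 3 probe sets were read from the same 4 arrays and are not independent measurements of the diets. Over all arrays, 203 probe sets had a log2 difference at least as high as that of the brightest ALAS1 probe set, of which 7 lay above the median signal and 4 above the 75th percentile of signal, ALAS1 included in each count.

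**Figure D1:**
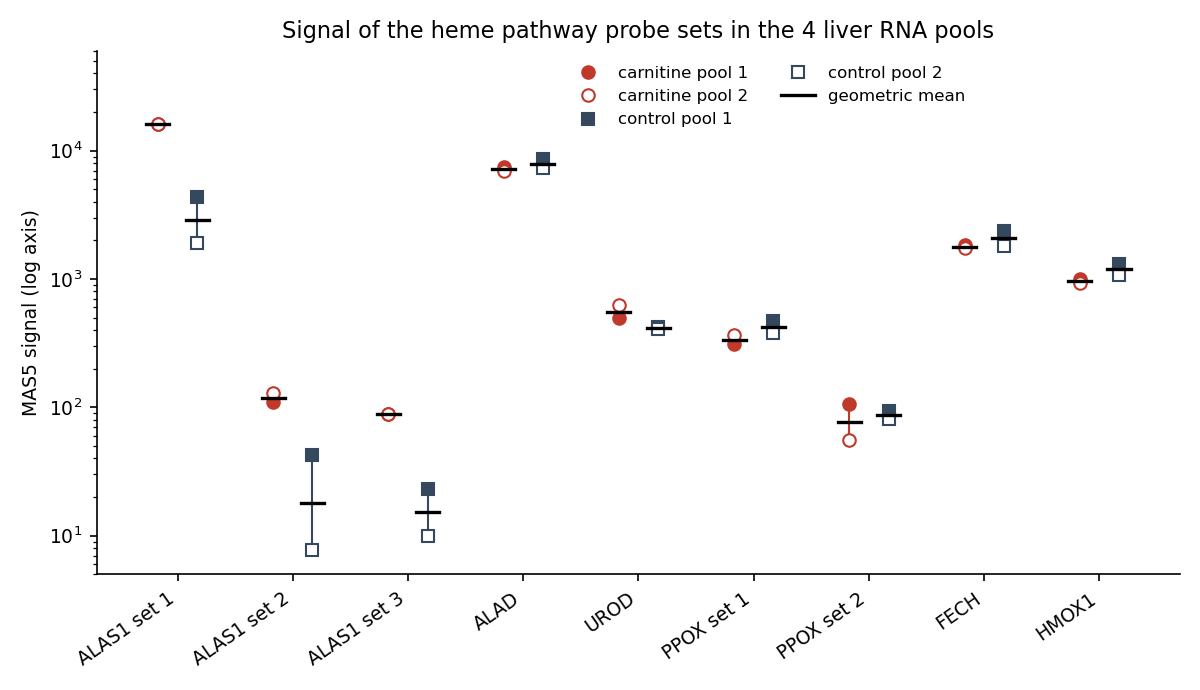
MAS5 signal on a log axis of the 9 probe sets in the 4 liver RNA pools, with circles for carnitine, squares for control, filled symbols for pool 1, open symbols for pool 2 and a black tick at the geometric mean of a diet. The 3 ALAS1 probe sets are the ones with a wide gap between circles and squares, and sets 1 to 3 are those with log2 differences of 2.47, 2.72 and 2.54.

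The middle steps of heme synthesis showed small differences, in both directions. ALAD, which condenses aminolevulinic acid to porphobilinogen and is the next enzyme after ALAS1, had signals of 7510.0 and 6960 under carnitine, against 8591 and 7292 in controls. Its pools overlapped between the diets, and its log2 difference was -0.13 (standard error 0.19). UROD, which removes carboxyl groups from uroporphyrinogen in the cytosol, had signals of 493 and 630 under carnitine, against 425 and 408 in controls. Both carnitine pools were thus above both control pools, by folds from 1.16 to 1.55, and the log2 difference was 0.42 (standard error 0.24). UROD was the single gene besides ALAS1 with a value above 0.

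Of the last steps, which take place in the mitochondrion, PPOX and FECH were measured, and their values lay slightly below 0. Over all probe sets 51.4% lay below 0. The brighter probe set of PPOX, the enzyme that oxidizes protoporphyrinogen, had signals of 310 and 368 under carnitine, against 470 and 382 in controls, with a log2 difference of -0.33 (standard error 0.26). Its dimmer probe set gave 105 and 55.8, against 93.5 and 80.8, and there the pools overlapped. Its value of -0.18 (standard error 0.48) turned to 0.28 without carnitine pool 2, which makes it the single member probe set whose sign changed in any of the settings tried. FECH, which inserts iron into protoporphyrin to give heme, had signals of 1840 and 1742 under carnitine, against 2382 and 1805 in controls. Its pools overlapped, and its log2 difference of -0.21 (standard error 0.21) was -0.012 without control pool 1.

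Heme breakdown was represented by HMOX1, the inducible heme oxygenase. It had signals of 992 and 929 under carnitine, against 1307 and 1082 in controls. Both carnitine pools lay below both control pools, with a 1.24-fold lower geometric mean and a log2 difference of -0.31 (standard error 0.20). The probe set has the suffix that Affymetrix gives where probes can match more than 1 transcript. HMOX1 is strongly expressed in macrophages, and of 20 markers of Kupffer cells and other macrophages 12 were measured. Of these, 5 were below and 3 above in all 4 comparisons, where 20.4% and 19.2% of all probe sets were. SIGLEC1, counted among the 3, had signals of 6.98 and 7.91 under carnitine, against 4.43 and 3.52 in controls. These lay below the 25th percentile of signal of every array. The summed signal of the 12 was 14790 and 15234 under carnitine, against 16467 and 16363 in controls. The macrophage scavenger receptor MRC1 had 1088 and 706, against 1138 and 1812, and the complement subunit C1QC had 1417 and 941, against 1790 and 1582. CD14, a co-receptor for endotoxin, went the other way with 356 and 409, against 216 and 328. A dimmer probe set of CD14 overlapped, with 89.4 and 61.8, against 59.0 and 145 (log2 difference -0.32, standard error 0.55). CD5L, a secreted protein of tissue macrophages that was chosen after its values were seen, overlapped with 6867 and 8692, against 7501 and 7230. It was the brightest of the 12 and thus weighs most in the sum. The part of these cells in the HMOX1 value was not tested.

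Counted over the pathway, 3 of the 9 probe sets were 2-fold or more higher in the carnitine pools, all of them ALAS1, and 0 were 2-fold or more lower. Among all probe sets 8.03% were 2-fold or more higher and 7.92% lower, and 3.65% of those above the median signal passed 2-fold in either direction. Both carnitine pools lay above both control pools for 4 of the 9 and below them for 2, where 19.2% and 20.4% of all probe sets did so. The median log2 difference over the 9 was -0.13, beside -0.018 over all probe sets, and it was 0.24 without carnitine pool 2. The 6 probe sets outside ALAS1 had values from -0.33 to 0.42 and a median of -0.20. None of the 6 reached 2-fold, and the sizes of their differences (median 0.26) were like those of all probe sets above the median signal (median 0.26). In limma 1 of all probe sets passed an adjusted p of 0.05, or 0.00417%, and it was a probe set of GSTA1, not of these genes.

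**Figure D2:**
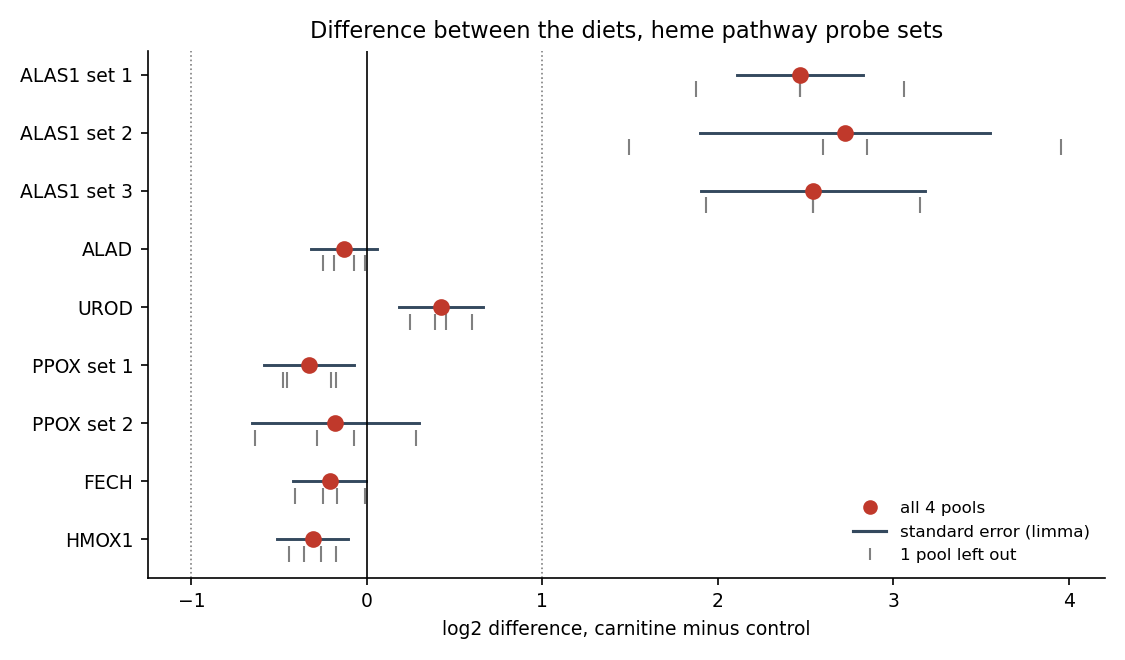
Log2 difference (carnitine minus control) of the 9 probe sets, with a red point for all 4 pools, a bar for the limma standard error on either side, grey ticks for the values with 1 pool left out and dotted lines at 2-fold. The ALAS1 points lie between 2.47 and 2.72 and all others between -0.33 and 0.42.

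The spread between pools differed as well. In 7 of the 9 probe sets the gap between the control pools was wider than that between the carnitine pools, with medians of 1.08-fold for the carnitine pools and 1.23-fold for the control pools. The same medians over all probe sets above the median signal were 1.17-fold and 1.25-fold. Control pool 1 was above control pool 2 in all 9, and carnitine pool 1 was above carnitine pool 2 in 4. The shares of all probe sets with such a gap or order were not counted. Since 3 of the 9 belong to ALAS1 and 2 to PPOX, the 9 are not separate observations. The counts are therefore not read as a trait of the pathway.

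Further enzymes of the pathway were looked up to see whether the isoenzymes of the members followed them. Of 5 listed genes, 4 were measured. ALAS2, the ALAS isoenzyme of red cell precursors, had signals of 358 and 240 under carnitine, against 644 and 917 in controls. It was thus lower in both carnitine pools, opposite to ALAS1, with a log2 difference of -1.39 (standard error 0.30, unadjusted p = 0.00222 and adjusted p = 0.342 from limma). The unadjusted p of ALAS2 was 0.0220 in limma without the trend and 0.0691 in the one-factor analysis of variance. HMOX2, the constitutive heme oxygenase, had 1987 and 1931, against 2418 and 2708, and a log2 difference of -0.39 (standard error 0.18, unadjusted p = 0.0719 and adjusted p = 0.615 from limma). Both heme oxygenases were thus lower in both carnitine pools, by small amounts, where 20.4% of all probe sets lay below in all 4 comparisons. BLVRA, the main biliverdin reductase of adult liver, had 140.0 and 102, against 120 and 148, and COX10, which starts the conversion of heme B to heme A, had 565 and 661, against 447 and 601, and both overlapped between the diets.

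Red cell precursors make heme as well, and their markers were measured beside ALAS2. Of 27 listed erythroid genes 9 had a probe set, ALAS2 among them, 4 of them above the median signal. In all 4 comparisons 4 of the 9 were below and 1 above, where 20.4% and 19.2% of all probe sets were. TFRC, counted among the 4, had signals of 3.13 and 4.61 under carnitine, against 5.40 and 6.34 in controls. These lay below the 25th percentile of signal of every array. The summed signal of the 9 was 1702 and 1312 under carnitine, against 1989.6 and 2509.9 in controls. HBM, a globin of the alpha cluster, had 495 and 207, against 507 and 800, and AHSP, which stabilizes free alpha globin, had 104 and 34.8, against 105 and 144. The enzyme BPGM was the 1 above, with 293 and 338, against 240.4 and 169. The beta globin HBB, chosen after its values were seen, overlapped with 310 and 299, against 278 and 301. None of the 9 was at 0, which by itself does not show that a gene was detected. The part of erythroid RNA in the values of ALAS2 or of the other heme enzymes was not tested.

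The study set out to find which hepatic pathways respond to carnitine, and 7 lists of genes around heme were drawn up to place ALAS1 among its suppliers, users and regulators. The lists hold 88 measured genes outside the members. At the brightest probe set of each gene, none passed the adjusted p over all probe sets in limma (smallest adjusted p = 0.102) or in a one-factor analysis of variance. PPRC1 passed it when only probe sets above the median signal were tested (adjusted p = 0.0426 from limma), and CYP2J34 passed it without control pool 1 (adjusted p = 0.0196 from limma). With all probe sets and pools in the fit, 16 had an unadjusted limma p under 0.05, 5 with a higher and 11 with a lower signal in the carnitine group. These 16 are 18.2% of the list genes, where 8.65% of all probe sets (4.72% higher and 3.93% lower) did so. Of the 11999 brighter probe sets, those above the median signal, 1438 did so. Since 78 of the 88 list genes lay in that brighter part, the share over all probe sets is not a like comparison. The gap between 18.2% and 8.65% is therefore not read as a result. Of the 16, 7 come from the list of fasting-linked genes, which was written with earlier results of these arrays in view. Without carnitine pool 2 the number was 8. With every probe set of these genes counted in place of the brightest, 9 of 131 probe sets were on the higher side and 11 on the lower.

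Genes that feed and surround the pathway in the mitochondrion stayed close to 0, with a median log2 difference of -0.045 over 16 measured genes, of which 1 with a higher and 1 with a lower signal had an unadjusted p under 0.05. OGDH, a subunit of the complex that yields succinyl-CoA, had signals of 2324 and 2409 under carnitine, against 1695 and 1746 in controls (log2 difference 0.46, standard error 0.18, adjusted p = 0.538 from limma). ABCB6, a porphyrin transporter, had 93.1 and 132, against 172 and 250 (log2 difference -0.90, standard error 0.37, adjusted p = 0.564 from limma). The mitochondrial ferredoxin FDX1 had 5864 and 4829, against 6779 and 7792, and the iron carrier SLC25A37 had 1020 and 721, against 674 and 586. Neither FDX1 nor SLC25A37 reached an unadjusted p under 0.05.

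Plasma scavengers and membrane carriers of heme also lay near 0, with 0 of 9 measured genes at an unadjusted p under 0.05 and a median of -0.12. Haptoglobin (HP), which binds free hemoglobin, had signals of 44644 and 40332 under carnitine, against 51684 and 44328 in controls. CD163, the receptor for the haptoglobin-hemoglobin complex, had 328 and 254, against 466 and 252. SLC46A1, a carrier of folate and heme, had 825 and 1034, against 1130 and 1369, and the exporter ABCG2 had 967 and 911, against 786 and 728. Of 8 genes of bilirubin handling 3 were measured. SLCO2B1, an uptake carrier, had 5049 and 4157, against 2375 and 4026, and the export pump ABCC2 had 66.6 and 78.4, against 72.7 and 86.8. The brightest probe set of GSTA1, a glutathione S-transferase of the family that binds bilirubin in the hepatocyte, had 31268 and 31596, against 41220 and 36979.

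Among proteins that carry heme, and the enzymes that pass them electrons, 23 of 31 measured genes had a log2 difference below 0, with a median of -0.14. Over all probe sets 51.4% lay below 0, and of the 12 measured hepatocyte markers 10 did, with a median of -0.12. At an unadjusted p under 0.05, 2 were higher and 3 lower. POR, which passes electrons to P450 enzymes and to heme oxygenase, had signals of 4648 and 3751 under carnitine, against 6281 and 6098 in controls (log2 difference -0.57, standard error 0.19, adjusted p = 0.480 from limma). CYP2D25, a hepatic P450, had 13773 and 10673, against 19109 and 17585 (log2 difference -0.60, standard error 0.21). The remaining one of the 3 was CYP3A22, with 1232 and 1562, against 1776 and 2895. CYP2J34, another P450, went the other way, with 1180 and 804, against 241 and 46.7, and a log2 difference of 3.20 (standard error 0.69, adjusted p = 0.342 from limma). This value was 4.38 with control pool 1 left out and 2.01 with control pool 2 left out. Cytochrome c (CYCS), which carries heme in the respiratory chain, had 1597 and 2078, against 1262 and 1055 (log2 difference 0.66, standard error 0.22).

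The regulators gave values on both sides. PPRC1, a coactivator of the PGC-1 family, had signals of 990 and 879 under carnitine, against 184 and 175 in controls. Its pools of 1 diet lay close together, and its log2 difference was 2.38 (standard error 0.23, adjusted p = 0.102 from limma), near that of ALAS1. PPARGC1A, which encodes PGC-1alpha, had 207 and 157, against 315 and 267, and thus lower signals in both carnitine pools (log2 difference -0.69, standard error 0.30, adjusted p = 0.586 from limma). FOXO1, a forkhead factor that insulin keeps out of the nucleus, had 737 and 626, against 866 and 1027. CEBPB, a hepatic transcription factor, had 2760 and 3241, against 3830 and 4359. PPRC1 was the 1 gene of the 16 measured in this list with an unadjusted p under 0.05, and the median was -0.093.

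The fasting-linked genes, which in rodents respond to the same hormones as ALAS1, had lower signals in the carnitine group in most cases. Of 10 measured genes 7 lay below in all 4 comparisons and 3 above, with a median log2 difference of -1.12. Of all probe sets 20.4% lay below and 19.2% above. At an unadjusted limma p under 0.05, 6 were lower and 1 was higher, where 3.93% and 4.72% of all probe sets were. The list was written with earlier results of these arrays in view, so its counts and p-values are a description. SDS, counted among the 7, was dim, with signals of 19.9 and 9.40 under carnitine, against 31.5 and 26.5 in controls. PCK1, the key enzyme of gluconeogenesis, had signals of 991 and 2490 under carnitine, against 5177 and 15246 in controls (log2 difference -2.50, standard error 0.57, adjusted p = 0.359 from limma). Its value was -3.28 without control pool 1, -1.72 without control pool 2, -1.84 without carnitine pool 1 and -3.16 without carnitine pool 2. IGFBP1, a binding protein of insulin-like growth factors that insulin represses, had 1761 and 927, against 7010 and 7769 (log2 difference -2.53, standard error 0.30, adjusted p = 0.174 from limma). FBXO32 and CCNG2, both known as targets of forkhead factors, had log2 differences of -1.87 and -2.22. Outside the naming rule, and chosen after their values were seen, the 3 genes above in all comparisons were ANGPTL4 (log2 difference 1.76, standard error 0.55), an inhibitor of lipoprotein lipase, CPT1A (0.52), the gate of mitochondrial fatty acid oxidation, and FBP1 (0.28) of gluconeogenesis. The ANGPTL4 value was 0.81 with control pool 1 left out and 2.71 with control pool 2 left out.

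**Figure D3:**
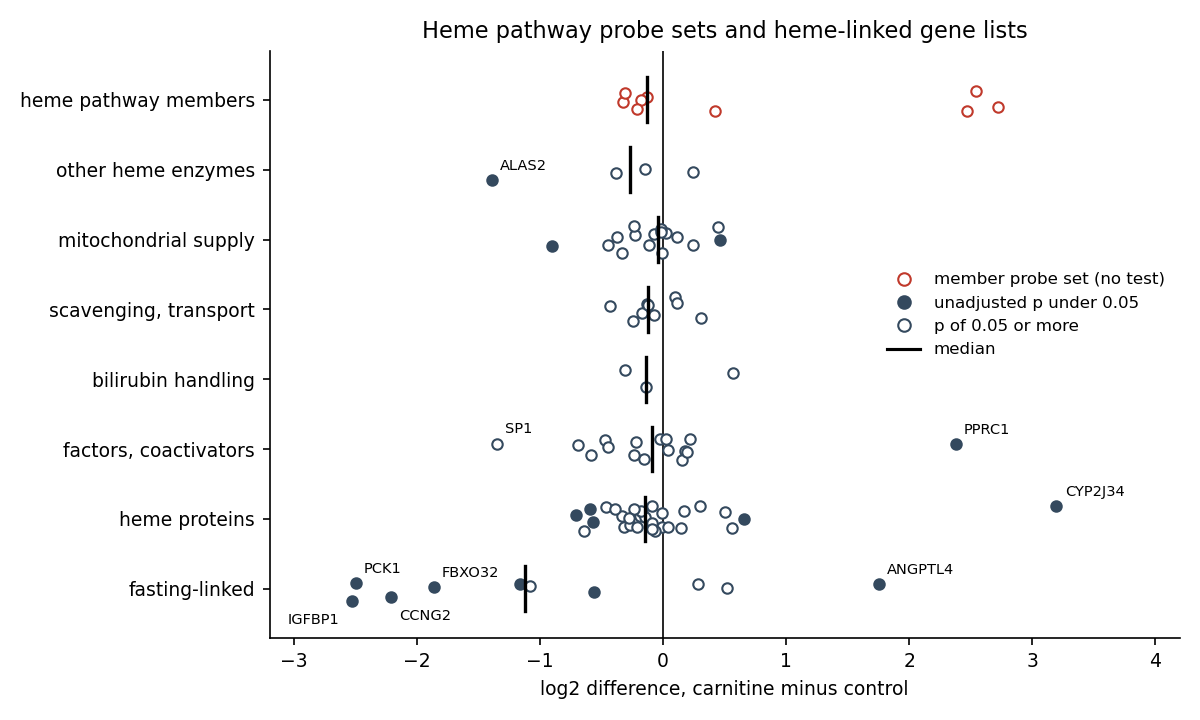
Log2 difference (carnitine minus control) of the 9 member probe sets and of the genes of 7 heme-linked lists, 1 point per gene at its brightest probe set, filled where the unadjusted limma p was under 0.05, with a black line at each median and names at values of 1.3 or more in size. The fasting-linked genes, a list written with earlier results of these arrays in view, have the lowest median of the lists, at -1.12. The other lists centre between -0.27 and -0.045.

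To see which transcripts shared the profile of ALAS1 over the 4 pools, log2 signals were centred for each probe set and compared with those of the brightest ALAS1 probe set by Euclidean distance, over the 6050 probe sets with 1 gene symbol above the median signal. With 4 pools the measure mostly picks genes with a like difference between the diets, and it is given as a description. The closest was CTPS1, a CTP synthase, at a distance of 0.63, with signals of 256 and 402 under carnitine, against 107 and 54.8 in controls. PAQR7, a membrane progestin receptor, followed at 0.67, PHLDA2 at 0.74, PPRC1 at 0.81 and SNAP29, a membrane fusion protein, at 0.82. PAQR7 had signals of 1885 and 2182, against 630 and 421. In 4 of the 5, PHLDA2, PAQR7, CTPS1 and SNAP29, control pool 1 was well above control pool 2, as it was for ALAS1, while the control pools of PPRC1 differed by 1.05-fold. The distance also takes in the gap between the control pools, so the choice of genes favoured this order.

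**Figure D4:**
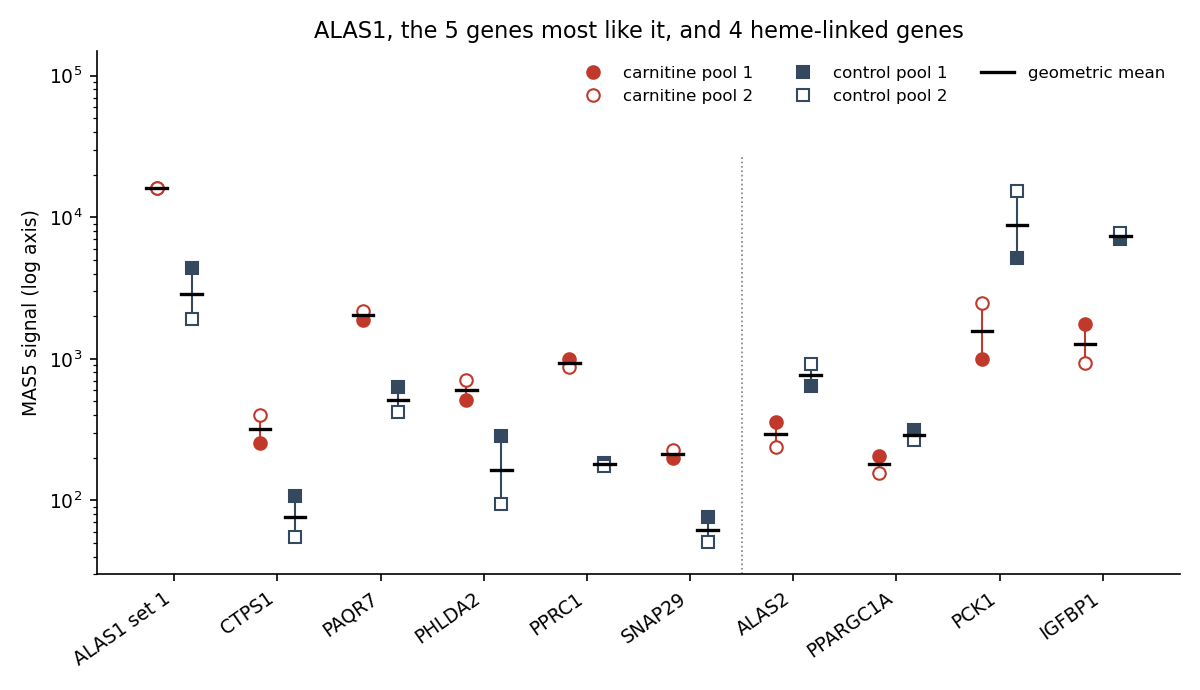
MAS5 signal on a log axis of the brightest ALAS1 probe set, of the 5 genes whose profile over the pools was closest to it (left of the dotted line) and of ALAS2, PPARGC1A, PCK1 and IGFBP1 (right of it), with symbols as for the pathway plot. Circles lie above squares for the 6 genes on the left and below them for the 4 on the right. The 4 on the right were picked from the heme-linked lists without a rule. Other genes of these lists, such as ANGPTL4 and CYP2J34, had higher signals in both carnitine pools, so the contrast follows from the picking.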

How the data were processed

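Total liver RNA of pigs was hybridized to Affymetrix porcine GeneChips, 1 array per pool of 4 pigs. The authors deposited linear signal intensities made with MAS5 (version 5.0), and GCOS 1.1.2 as well as version 1.1 of Affymetrix Expression Console stand in the submitters' processing notes. Precision is limited by the number of arrays (4).

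Log2 signals were used without a pseudocount or filter, and 124 Affymetrix controls were left out. limma 3.58.1 in R 4.3.3 (lmFit, eBayes with a variance trend) was fitted over 23999 probe sets, with Benjamini-Hochberg adjustment at 0.05, and was checked on simulated data. An exact permutation test of 2 pools against 2 cannot give a two-sided p below 0.333. In the array annotation 10069 probe sets have 1 symbol, 198 have several and 13732 have none. It names no genome build, so no coordinates are given.

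The members and lists were chosen with earlier results of these data known. The text names every member probe set, the other heme enzymes, per list up to 4 genes of lowest p and also the 5 genes closest to ALAS1, a list gene being represented by its brightest probe set. The alternatives were quantile normalization, median centring, a floor at the 25th percentile, an offset of 64, a filter at the median signal, arithmetic means, limma without the trend, one-factor analysis of variance, replicate numbers as a block, every probe set of a list gene and leaving out each pool.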

Additional observations from a re-analysis of the deposited data

How the results depend on the processing

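The ALAS1 difference, the brightest probe set, kept its direction in every setting tried, from 1.88 to 3.06. With the filter at the median signal 1 member probe set lay at 2-fold or more, since the dim ALAS1 probe sets were left out. The median over the members ranged from -0.25 to 0.24 with 1 pool left out and turned sign without carnitine pool 2. The number of all probe sets past the adjusted p was 2 with the floor at the 25th percentile, 3 above the median signal, 0 in limma without the trend, 0 in the analysis of variance and from 0 to 8 with 1 pool left out. At an unadjusted p under 0.05 it ranged from 984 to 3003 with 1 pool left out. Of the genes in the heme-linked lists 7 were under that p without the trend, 9 in the analysis of variance and from 8 to 23 with 1 pool left out. For the list and marker genes named in the text, the alternatives left 443 values on the same side of that p, moved 26 under it and 29 above it, and turned no gene that was under it. The cause of these shifts was not tested. The list genes past the adjusted p were 1 with the filter at the median signal (PPRC1), 1 without control pool 1 (CYP2J34) and 0 in the other settings without a block. A fit without a pool assumes that the lone pool varies like the other diet.

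With the replicate number as a block, the ALAS1 difference was again 2.47 (standard error 0.26) and 106 probe sets passed the adjusted p in place of 1. Of the list genes 6 were among them (PPRC1, CYP2J34, PCK1, IGFBP1, ANGPTL4 and CCNG2, with adjusted p from 0.000104 to 0.0172 in limma). The labels do not say that the numbers pair the pools, and deviations of pools with the same number correlated at r = 0.0049 over all probe sets. A value near 0 over all probe sets cannot show whether some genes share an effect of the number.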

Other observations

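Some genes of the heme-linked lists have a further, dimmer probe set whose value differed from the one described, and these were picked after their values were seen. The dimmer probe set of CD163 had signals of 173 and 196 under carnitine, against 43.3 and 99.5 in controls, a log2 difference of 1.49 (standard error 0.48, adjusted p = 0.466 from limma), while its brightest gave -0.25. For HNF4A, a nuclear receptor of hepatocytes, the dimmer probe set had 403 and 532, against 283 and 310, a log2 difference of 0.64 (standard error 0.26), and the brightest 0.15. The dimmer probe set of SLC46A1 gave 0.61 (standard error 0.49), opposite to its brightest at -0.43. That of ABCG2 gave -0.35 (standard error 0.36), opposite to its brightest at 0.31. For SLC25A37 the dimmer probe set gave -0.075 (standard error 0.43), beside 0.45 for its brightest. In these dimmer probe sets of ABCG2 and SLC25A37 the pools overlapped between the diets. The dimmer probe set of PPRC1 had signals of 17.0 and 45.8, against 43.7 and 31.1, and its pools overlapped. For GSTA1, a further probe set is the 1 that passed the adjusted p over all probe sets, with signals of 5942 and 9760, against 39.9 and 86.5, while the bright ones gave -0.31 and -0.22.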
